A study of Mus musculus with 4 samples.

Results

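The subunits of AP-1 were followed across 4 Affymetrix mouse whole-genome arrays of naive helper T cells. All probe sets that the platform annotation assigns to Jun, Junb, Jund, Fos, Fosb, Fosl1, Fosl2, Batf or Atf3 alone were taken, which gave 13 probe sets for these 9 genes among 18193 genes with a probe set of their own. The 9 genes were selected on an earlier comparison of the knockout-labelled with the wild-type arrays, in which Jun and Fos stood out. Their difference between those groups is therefore given as a description, and nothing is supported by it; calls of the fit over all probe sets are printed once for this contrast, as background. The cells were freshly isolated and sorted as CD4+ CD62L+ CD44- from mice aged 10 to 11 weeks. Mice labelled wild type carried the floxed furin alleles (fur flox/flox) and no Cre, and their littermates labelled knockout carried the same floxed alleles with CD4-cre. The CD4 promoter drives Cre in developing T cells, so Cre is not restricted to the sorted cells. Each group had 2 arrays, numbered 1 and 2 in the labels, and the labels do not say whether they came from separate animals. This number of arrays limits the precision of every value.

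AP-1 is a dimer of basic leucine zipper proteins. Jun proteins can pair with each other or with a Fos protein, whereas Fos proteins need a Jun partner, and the dimers bind a short palindromic DNA element in promoters and enhancers. In T cells, receptor signals reach AP-1 through the MAP kinases, and AP-1 acts together with NFAT at cytokine genes. Jun, Fos and Junb are immediate early genes, whose mRNA rises within minutes of a stimulus or of cell stress and decays quickly.

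The arrays differed by number as well as by genotype. Controls added to the hybridisation, namely BioB, BioC, BioDn and CreX, were summarised by a geometric mean over 9 probe sets. CreX is a Cre sequence, and the knockout-labelled mice carry Cre too. This mean was 6.25-fold higher on array 2 than on array 1 in wild type, and 6.09-fold higher in the knockout-labelled group. In wild type the 3' to 5' ratio of Gapdh signal was 4.09 on array 1 and 0.905 on array 2, and in the knockout-labelled group it was 3.35 on array 1 and 0.934 on array 2. Differences are therefore given within each array number. The only Furin probe set read 435.1 and 343.9 on the wild-type arrays 1 and 2, and 391.4 and 446.9 on the knockout-labelled arrays 1 and 2. The floxed part of the gene is not named in the labels, so this does not check the genotype. The T cell markers Cd4 and Cd3e were high on every array, with Cd4 between 2974.4 and 3432.4 and Cd3e between 3160.7 and 7706.7.

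Promoter sequence is shown for Jun, Fos and Junb, the 3 genes with a 2-fold or larger gap between all knockout-labelled and all wild-type arrays, and for Jund, whose brighter probe set did not separate the groups. The windows come from RefSeq (assembly GRCm38.p6) and run 5' to 3' along the gene, from 250 bases before to 50 bases after its annotated start. Capitals mark the motifs found by a search of both strands. Jun lies at chr4:95052173-95052472 (minus strand), Fos at chr12:85473640-85473939 (plus strand), Junb at chr8:84978699-84978998 (minus strand) and Jund at chr8:70697489-70697788 (plus strand).
Jun: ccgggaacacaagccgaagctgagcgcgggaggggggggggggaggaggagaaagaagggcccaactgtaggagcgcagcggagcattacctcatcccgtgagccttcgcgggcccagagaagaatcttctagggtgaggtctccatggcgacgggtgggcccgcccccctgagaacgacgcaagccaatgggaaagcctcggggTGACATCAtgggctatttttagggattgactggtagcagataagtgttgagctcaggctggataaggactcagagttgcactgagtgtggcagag
Fos: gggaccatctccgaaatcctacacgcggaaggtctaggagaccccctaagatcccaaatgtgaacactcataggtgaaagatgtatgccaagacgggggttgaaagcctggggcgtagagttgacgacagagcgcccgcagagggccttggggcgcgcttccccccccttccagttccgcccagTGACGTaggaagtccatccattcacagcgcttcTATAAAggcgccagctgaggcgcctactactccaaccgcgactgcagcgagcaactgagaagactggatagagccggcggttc
Junb: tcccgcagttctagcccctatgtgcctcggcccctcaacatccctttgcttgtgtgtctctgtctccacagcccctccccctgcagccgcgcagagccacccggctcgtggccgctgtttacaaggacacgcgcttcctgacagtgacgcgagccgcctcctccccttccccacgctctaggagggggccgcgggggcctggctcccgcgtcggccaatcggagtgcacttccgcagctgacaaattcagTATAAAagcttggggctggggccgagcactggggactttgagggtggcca
Jund: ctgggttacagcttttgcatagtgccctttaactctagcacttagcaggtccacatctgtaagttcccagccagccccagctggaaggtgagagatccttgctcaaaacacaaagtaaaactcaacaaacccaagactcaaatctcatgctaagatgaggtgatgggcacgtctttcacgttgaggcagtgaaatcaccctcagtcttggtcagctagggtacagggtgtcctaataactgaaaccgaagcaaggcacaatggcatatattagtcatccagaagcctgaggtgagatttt

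The motifs searched were the AP-1 site TGACTCA, the cyclic AMP response element TGACGTCA, its shorter form TGACGT, the AP-1-like element TGACATCA, the TATA box TATAAA and the CArG box, which serum response factor binds. The shorter form also matches within the full cyclic AMP response element, but no member window held the full element. Windows were at hand for 8 of the 9 members. In Jun, TGACATCA stands at positions -45 to -38 from the annotated start, and this element is known from human and rodent cells as a site of autoregulation by Jun. It occurred in 3.62% of the 32851 promoter windows of the table and in no other member. In Fos, TGACGT stands at -66 to -61 and TATAAA at -33 to -28. The shorter cyclic AMP form was also present in Batf at -98 to -93 and in Atf3, on the opposite strand, at -8 to -3, against 7.51% of all windows. In Junb, TATAAA stands at 1 to 6, just past the annotated start, and 13.6% of all windows held it. TGACTCA, TGACGTCA and the CArG box, found in 5.20%, 1.79% and 1.63% of all windows, were in none of the 8. The CArG box of Fos is known to lie upstream of the window shown. These matches describe letters only; binding was not measured.

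Jun was far higher in the knockout-labelled arrays than in wild type in both array numbers. Its brighter probe set, 1417409_at, read 232.7 and 238.9 on the wild-type arrays 1 and 2, and 6631.6 and 5795 on the knockout-labelled arrays 1 and 2. The groups lay far apart and the arrays of a group lay close together, with means of 235.8 ± 4.38 and 6213 ± 592 (SD, n = 2 each). On the log2(signal + 15.3) scale, whose added constant equals the 25% quantile of the table, the knockout-labelled arrays were higher by 4.74 within number 1 and by 4.51 within number 2. The mean difference was 4.63 (SE 0.32 in the fit without array number), a 24.8-fold difference on that scale. It ranked 1, counted from the largest positive difference, among the 22518 filtered probe sets, those with a mean over the arrays above the median of all such means. In bulk cells, more cells with Jun mRNA and more Jun mRNA per cell cannot be told apart.

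The dimmer Jun probe set, 1448694_at, read 158.4 and 76 on the wild-type arrays and 2271.9 and 935.6 on the knockout-labelled arrays. It separated the groups as well, by 3.72 within number 1 and 3.38 within number 2, and ranked 6. Unlike the brighter one, it was lower on array 2 than on array 1 in each group. Both probe sets are annotated to the same Jun transcript.

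Fos, the partner of Jun in the classical AP-1 dimer, was higher too. Its only probe set, 1423100_at, read 873.5 and 374.2 on the wild-type arrays and 11333.5 and 8045.2 on the knockout-labelled arrays. The lowest knockout-labelled array lay 3.18 above the highest wild-type array on the log2 scale. Group means were 623.9 ± 353 and 9689 ± 2325 (SD, n = 2 each). The difference was 3.67 within number 1 and 4.37 within number 2, with a mean of 4.02 (SE 0.52), or 16.3-fold, and ranked 2.

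Junb, a Jun protein that activates weakly on its own and often restrains Jun, differed by less and unevenly. Its probe set, 1415899_at, read 556 and 1032.5 on the wild-type arrays and 3257.8 and 2203.1 on the knockout-labelled arrays. The groups did not overlap, but the wild-type level was higher on array 2 and the knockout-labelled level was higher on array 1. The difference was 2.52 within number 1 and 1.08 within number 2, with a mean of 1.80 (SE 0.46), and ranked 40. The gap of 1.44 between the differences compares with a median gap of 0.30 over the filtered probe sets, and 2.41% of them had one as large. With 1 array per group and number, this gap cannot be tested.

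Jund, the Jun protein that resting cells express steadily, differed little between the groups. The brighter probe set, 1449117_at, read 5660.8 and 4785.6 on the wild-type arrays and 6992.2 and 5306.4 on the knockout-labelled arrays, so the groups overlapped. The difference was 0.30 within number 1 and 0.15 within number 2, with a mean of 0.23 (SE 0.35). The dimmer one, 1440265_at, is annotated to an expressed sequence tag. It read 9.2 and 18.5 on the wild-type arrays and 44.3 and 27.6 on the knockout-labelled arrays, all below the filter level of 60.0, where the table gives no detection call and small signals may be background.

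**Figure D1:**
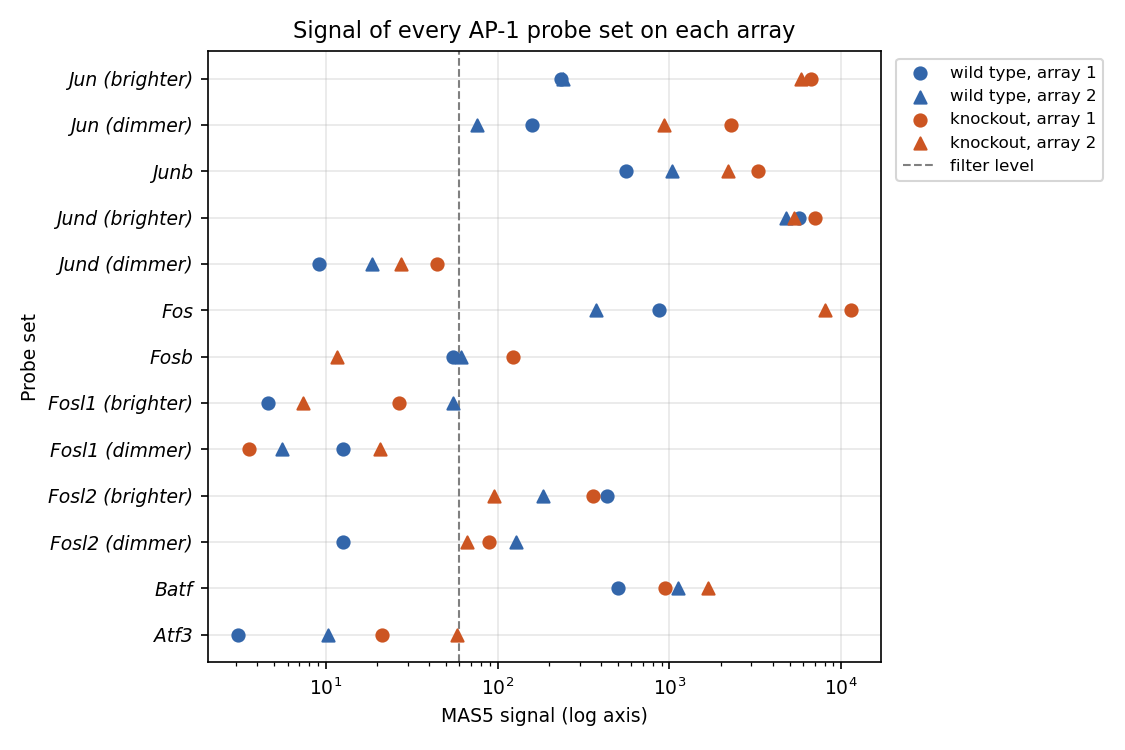
MAS5 signal (log axis) of the 13 AP-1 probe sets on each of the 4 arrays, blue for wild type and orange for knockout-labelled, circles for arrays numbered 1 and triangles for arrays numbered 2; the dashed line is the filter level of 60.0, which was applied to the mean of a probe set. The orange points lie clear of the blue ones for both Jun probe sets, Fos and Junb, and are mixed with them for the brighter Jund probe set, Batf and Fosl2.

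The other Fos genes showed no such separation. Fosl2 encodes Fra-2, a Fos protein without the strong activation domain of Fos. Its brighter probe set, 1437247_at, read 431.5 and 184.2 on the wild-type arrays and 358.5 and 95.9 on the knockout-labelled arrays. It was the only AP-1 probe set lower within both numbers, by -0.26 and -0.84, and its groups overlapped. The dimmer Fosl2 probe set, 1422931_at, read 12.6 and 127.6 on the wild-type arrays and 89.5 and 66.8 on the knockout-labelled arrays. Its differences of 1.91 and -0.80 had opposite signs, so the probe sets of Fosl2 disagreed. Its wild-type mean of 5.98 on the log2 scale lay below the filter level of 6.24 and its knockout-labelled mean of 6.54 above it, which makes it the only member that passed through 1 group.

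Fosb, a close relative of Fos that is also induced by stimuli, read 55.1 and 61.5 on the wild-type arrays and 123.8 and 11.7 on the knockout-labelled arrays. Its difference was 0.98 within number 1 and -1.51 within number 2, so it had no common direction. Fosl1, which encodes Fra-1, was dim throughout. Its probe set 1417487_at read 4.6, 55.4, 26.7 and 7.4 on wild-type arrays 1 and 2 and knockout-labelled arrays 1 and 2, in this order, and 1417488_at read 12.7, 5.6, 3.6 and 20.7. Both changed sign between the array numbers, in opposite ways. None of these 3 probe sets passed the filter.

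Batf lacks an activation domain and pairs with Jun proteins, and in T cells the dimer binds DNA together with Irf4. Its probe set, 1419410_at, read 504.3 and 1122.9 on the wild-type arrays and 941.7 and 1679.1 on the knockout-labelled arrays. Knockout-labelled array 1 lay below wild-type array 2, so the groups overlapped, although the level was higher within number 1 by 0.88 and within number 2 by 0.57. The mean difference was 0.73, and ranked 474. Its SE of 0.55 comes from the fit without array number, which counts the difference between the numbers as spread. Atf3, a stress-induced member of the ATF family, read 3.1 and 10.3 on the wild-type arrays and 21.3 and 58.2 on the knockout-labelled arrays. The groups did not overlap, with differences of 0.99 and 1.52, but no array reached the filter level. Its mean difference of 1.26 depended on the added constant and was 2.42 with a constant of 1 and 0.52 with a constant of 66.6, the median of all values.

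Over the family, 8 of 13 probe sets were higher within both array numbers, 1 was lower within both and 4 had opposite signs; of the 8 that passed the filter, 6 were higher and 1 lower. Of the filtered probe sets on the array, 25.3% were higher and 30.1% lower within both numbers. Both knockout-labelled arrays lay above both wild-type arrays for 6 of 13 members, namely both of Jun and 1 each of Junb, Fos, Jund and Atf3, and below them for 0. Of the 8 that passed the filter, 4 lay above and 0 below. The shares over all filtered probe sets were 7.62% above and 9.54% below. A separation of at least 2-fold in all 4 comparisons of arrays held for 4 members, both of Jun, Junb and Fos, against 0.164% of the filtered probe sets. The genes were chosen from this contrast, so these counts describe them and support nothing further.

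The limma fit without array number called 0 of 22518 filtered probe sets (0%) at a Benjamini-Hochberg adjusted p under 0.05, so 0 of the 8 members that passed the filter. At an unadjusted p under 0.05 this limma fit had 145 probe sets, fewer than that threshold would give if nothing differed. The limma fit with array number as a block had 1897. Without the block, the difference between the numbers is counted as spread. The 0 calls and every SE given from that fit include it. With array number as a block, limma called 6 probe sets (0.0266%), 3 of them members, both of Jun and Fos. These genes were chosen because they stood out in this contrast on these arrays, so nothing is read from their share of the calls. The 8 members are both probe sets of Jun and of Fosl2, the brighter one of Jund, and those of Junb, Fos and Batf.

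**Figure D2:**
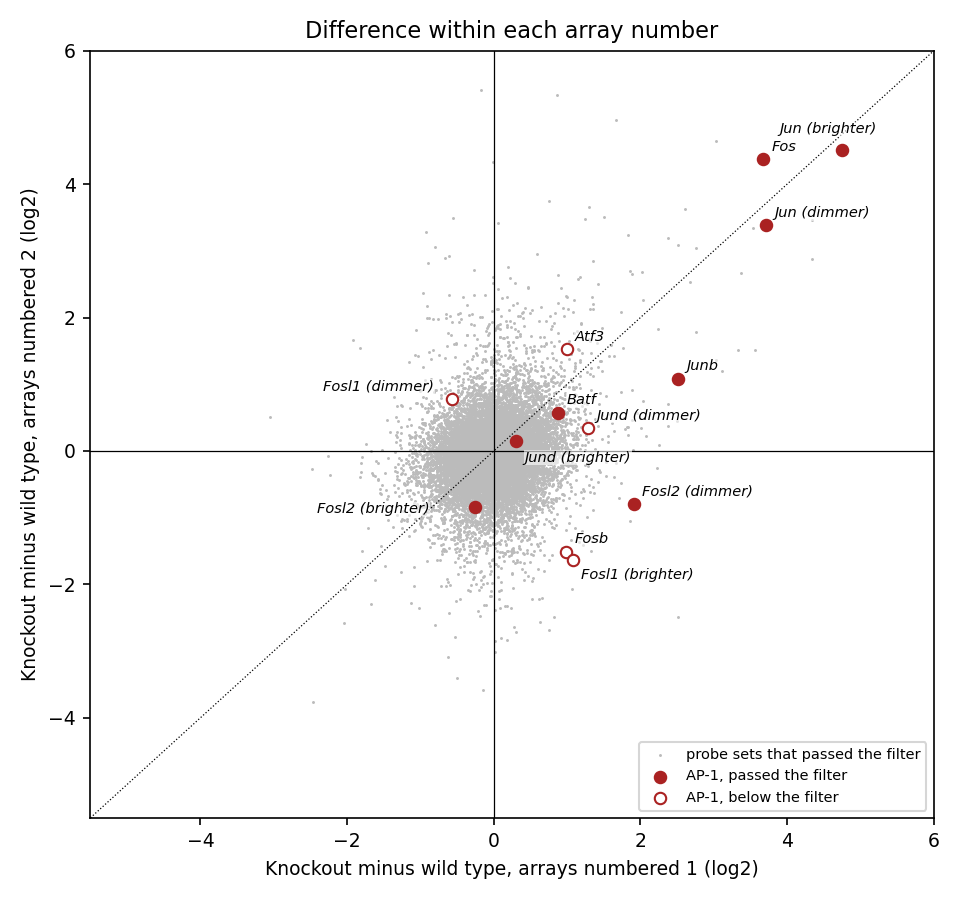
Knockout-labelled minus wild-type difference on the log2(signal + 15.3) scale within arrays numbered 1 (horizontal axis) and within arrays numbered 2 (vertical axis), grey for the 22518 filtered probe sets, red for AP-1 members that passed the filter and open circles for those that did not; the dotted line marks equal differences. Jun and Fos lie at the far upper right, near the dotted line, Junb lies below it at 2.52 and 1.08, and Fosb, the brighter Fosl1 and the dimmer Fosl2 probe sets lie at the lower right, where the signs are opposite.

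The difference between arrays numbered 2 and 1 is independent of the genotype contrast and could be tested. In the limma fit with genotype and array number, 7791 of 22518 probe sets (34.6%) differed between the numbers at a Benjamini-Hochberg adjusted p under 0.05, of which 4398 were higher on arrays numbered 2. Of the 8 members that passed the filter, 4 were called, and with so few probe sets this share is not read as different from that background. Batf was higher on arrays numbered 2 by 0.98 (SE 0.20, adjusted p = 0.0181, limma), by 1.13 in wild type and 0.82 in the knockout-labelled arrays. The brighter Fosl2 probe set differed by -1.46 (SE 0.22, adjusted p = 0.00955, limma), the dimmer Jun probe set by -1.10 (SE 0.20, adjusted p = 0.0140, limma) and Fos by -0.84 (SE 0.24, adjusted p = 0.0440, limma). Each of these 4 moved the same way in both groups. The brighter Jun probe set differed by -0.08 (SE 0.19, adjusted p = 0.771, limma); whether the Jun probe sets differ from each other in this respect was not tested. The members called fell to 0 of 13 with no filter and were 2 of 5 with a filter at the 75th percentile, so the calls depend on which probe sets are fitted.

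**Figure D3:**
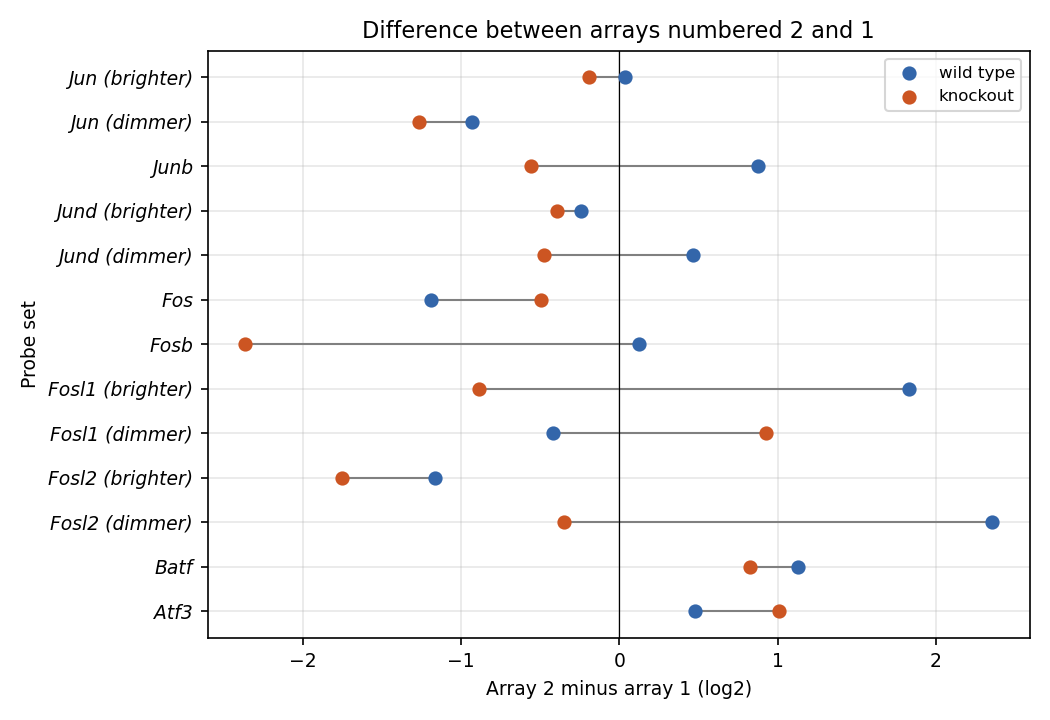
Difference between array 2 and array 1 of the same group on the log2(signal + 15.3) scale for the 13 AP-1 probe sets, blue for wild type and orange for knockout-labelled, with a line joining the groups. Both points lie to the left of 0 for the dimmer Jun probe set, Fos and the brighter Fosl2 probe set and to the right for Batf, while Junb has 0.88 in wild type and -0.56 in the knockout-labelled arrays.

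Genes that act with or on AP-1 were counted from 8 lists. Over all filtered probe sets the median difference was -0.02, with quartiles of -0.20 and 0.15. Of these probe sets, 25.3% were higher and 30.1% lower within both numbers. Of 12 other basic leucine zipper partners that passed the filter, 3 were higher and 1 lower within both numbers, and the median was 0.13. Cebpb, which is known from myeloid cells and inflammation, read 79.3 and 417.9 on the wild-type arrays and 264.9 and 1144.7 on the knockout-labelled arrays, a difference of 1.57 and 1.42 within numbers 1 and 2. Maff, a small Maf protein, differed by -0.19 and 2.00, and Maf by 0.32 and 0.69. Batf2, Batf3 and Jdp2, closer relatives of the members, did not pass the filter.

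Kinases upstream of AP-1 and the factors that transcribe Fos and Jun had medians below that of all filtered probe sets, but within their quartiles. Of 13 kinases, 3 were higher and 5 lower within both numbers, with a median of -0.11 and a range from -0.36 for Map3k1 to 0.26 for Map3k5; Rps6ka3 was at -0.30. Of 10 transcription regulators, 0 were higher and 7 lower within both numbers, with a median of -0.13, and the largest differences were 0.29 for Stat3, -0.24 for Ep300 and -0.20 for Elk4. Of 8 genes of Fos and Jun turnover, 3 were higher and 1 lower within both numbers, and the median was 0.07. Zfp36, an RNA-binding protein that speeds the decay of short-lived mRNAs and is itself an immediate early gene, read 3169.6 and 3298.5 on the wild-type arrays and 5472.9 and 4223.4 on the knockout-labelled arrays. Its groups did not overlap, with differences of 0.79 and 0.36. Elavl1 and Zfp36l1 were at 0.23 and -0.14.

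Of 10 partners and competitors at AP-1 sites, 2 were higher and 4 lower within both numbers, and the median was -0.04. Irf4, which binds with Batf and Jun, read 314.9 and 169.4 on the wild-type arrays and 550.6 and 375.2 on the knockout-labelled arrays, differences of 0.78 and 1.08 with no overlap. Irf8, which can bind with Batf in the same way and is also expressed by B cells and myeloid cells, read 173.5 and 129.6 on the wild-type arrays and 382.7 and 598.3 on the knockout-labelled arrays. Bach1, a repressor, was at -0.41.

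Of 17 genes with known AP-1 sites, 7 passed the filter, of which 1 was higher and 3 lower within both numbers, with a median of -0.13. Over all 17 without the filter, 6 were higher and 4 lower within both numbers. Il2, Csf2, Ifng, Il4, Il5 and Il13, cytokine genes that AP-1 and NFAT drive in activated T cells, were below the filter. Among them Ifng, the Th1 cytokine, read 16.8 and 4.9 on the wild-type arrays and 83.2 and 48.6 on the knockout-labelled arrays. Its differences were 1.62 and 1.66 with no overlap. Il4 was also higher within both numbers, Il5 was lower within both, and Il2, Csf2 and Il13 had opposite signs. Signals this small may be background. Cd69, an early activation marker, read 2673 and 2007.8 on the wild-type arrays and 4543.5 and 2188.9 on the knockout-labelled arrays, so the groups overlapped. Fasl was at -0.53 and Il2ra, the interleukin 2 receptor alpha chain, at -0.42, and both were lower within both numbers.

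Other immediate early genes were uneven. Of 14 that passed the filter, 6 were higher and 0 lower within both numbers. The median was 0.05, and with 1 array left out it ran from 0.13, without wild-type replicate 1, to 0.42, without wild-type replicate 2. Dusp1, a phosphatase that switches off MAP kinases, read 761.6 and 487.3 on the wild-type arrays and 5247.2 and 1711.7 on the knockout-labelled arrays. Ppp1r15a, a stress-induced regulator of protein synthesis, read 490.2 and 625.5 on the wild-type arrays and 4363.7 and 1462 on the knockout-labelled arrays. Like Junb, Dusp1 and Ppp1r15a had the larger difference within number 1, with 2.76 against 1.78 and 3.11 against 1.21. Nr4a2, a nuclear receptor, was at 0.94 and 0.32. Of 9 heat shock genes that passed the filter, 6 were higher and 0 lower within both numbers and 3 had opposite signs, beside 25.3% higher and 30.1% lower of all filtered probe sets. Their median was 0.41 and ranged from 0.13, without knockout replicate 1, to 0.75, without knockout replicate 2; their part in the AP-1 values was not tested. Hspa1a read 1130.3 and 224.8 on the wild-type arrays and 13319.6 and 2412 on the knockout-labelled arrays, and Hspa1b was higher by 1.82 and Hsph1 by 0.87; Hspa1a and Hspa1b are near-identical copies, so their signals cannot be assigned with certainty. With array number as a block, limma called 1 gene of the 8 lists at a Benjamini-Hochberg adjusted p under 0.05, Hspa1a, and 0 without the block.

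**Figure D4:**
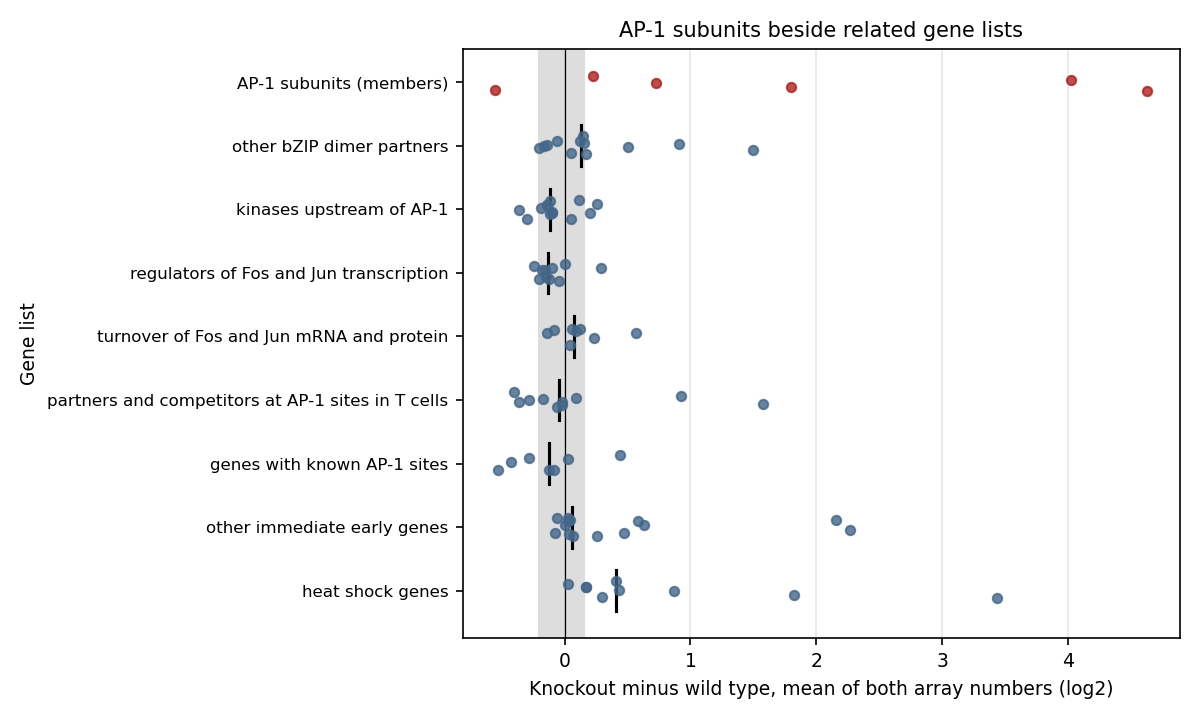
Knockout-labelled minus wild-type difference on the log2(signal + 15.3) scale, averaged over both array numbers, for each filtered gene (its brightest probe set) of the AP-1 family in red and of 8 related lists in blue; black bars are list medians and the grey band runs from -0.20 to 0.15, the quartiles of all filtered probe sets. Most blue points lie close to the band, while Jun, Fos, Dusp1, Ppp1r15a and Hspa1a lie above 2.

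Genes with the same pattern over the 4 arrays were sought by the root mean square distance between log2 values centred on each gene's mean, over 10205 other genes. Since the genotype difference dominates this measure, it follows the contrast that chose the members. Fos lay at 0.54 from Jun, against a median distance of 2.34 over all genes. The 5 genes nearest to Jun were Tgm2 (0.40), Gm4951 (0.65), H3f3b (0.65), Dtl (0.95) and Iigp1 (1.21). Those nearest to Fos were Tgm2 (0.51), Dtl (0.57), H3f3b (0.59), Gm4951 (0.65) and Hspa1a (0.84), against a median of 2.09. Tgm2, a transglutaminase, read 63.6 and 78.3 on the wild-type arrays and 1585.2 and 1017.4 on the knockout-labelled arrays, and its groups lay far apart. H3f3b, a variant histone gene, read 244.7 and 272.9 on the wild-type arrays and 5226.3 and 2106.6 on the knockout-labelled arrays.

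Markers of other cells were examined on the same arrays. Of 11 myeloid markers that passed the filter, 11 were higher within both numbers, beside 25.3% higher and 30.1% lower of all filtered probe sets. The summed signal of the 14 myeloid markers was 1365 and 4236 on the wild-type arrays and 2184 and 15069 on the knockout-labelled arrays. Of 9 B cell markers that passed, 7 were higher, 0 lower and 2 of opposite signs within the numbers. Their median difference was 0.23 within number 1 and 1.43 within number 2. Summed signals over 10 B cell markers were 12800 and 19465 on the wild-type arrays and 11657 and 30902 on the knockout-labelled arrays. Ighm was the largest part of each sum, with 11655.7 and 14964.6 on the wild-type arrays and 10033.3 and 15221.3 on the knockout-labelled arrays. The lower sum of the knockout-labelled array within number 1 thus follows Ighm. In the other lists 3 of 7 CD8 T and NK cell markers were higher and 2 lower within both numbers. For plasma cells 1 of 4 markers was higher and 0 lower, and of 2 erythroid and platelet markers 0 were higher and 1 was lower. Of 9 T cell markers that passed, 0 were higher and 4 lower within both numbers, with a median difference of -0.06. No gene of any list was at 0 on every array, so a signal above 0 does not show that a myeloid or B cell marker was expressed. Lyz2, a defining myeloid marker, read 54.6 and 174.2 on wild-type arrays 1 and 2. On knockout-labelled arrays 1 and 2 it read 123.3 and 935.4. The myeloid and B cell sums were highest on knockout-labelled array 2. Jun, Fos and Junb were highest on knockout-labelled array 1, but the arrays also differ by number. The median difference of the filtered myeloid markers was 0.99 within number 1 and 2.07 within number 2. Fos, with 3.67 and 4.37, likewise differed by more within number 2, and Jun and Junb by more within number 1. The part of these cells in the AP-1 values was not tested.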

How the data were processed

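Naive T cells from 2 wild-type and 2 knockout-labelled samples were measured, 1 array each; 5 micrograms of total RNA were made into labelled cRNA, per the labels' protocols. The deposited intensity values are MAS5 signals on a linear scale, per the submitters' processing notes; its version is not given in the sources used here. Every array has a trimmed mean of 500.003 when 2% of values are cut at each end, so the authors had scaled them. Of 45101 probe sets, 64 controls were left out. Values were taken as log2(signal + 15.3), which understates changes of dim probe sets, and the 22518 probe sets with a mean above the median of means were fitted two-sided with limma (3.58.1, under R 4.3.3), with Benjamini-Hochberg adjustment over all of them. The reported genotype fit has no block. The labels number the arrays but state no shared animal or day. The p-values thus rest on the spread of these 4 samples alone, which may be technical.

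The members, gene lists and tests were chosen with earlier results of these data known. Every member probe set is named; list genes named are the 3 of largest mean difference per list, and others named were chosen after their values were seen. A gene of a list is represented by its brightest filtered probe set. Symbols of other genes were updated through a RefSeq gene table (GRCm38.p6). The fits were also run on simulated data, with noise drawn independently for each array, and no result given here rests on that run. Alternatives covered the added constant, the filter, normalization, the prior, the array number as a block, the thresholds, the probe set per gene and each array left out.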

Additional observations from a re-analysis of the deposited data

How the results depend on the processing

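The genotype fit called 0 AP-1 probe sets with each array left out in turn and under the other settings tried, except with the replicate block (array number as a term), which called 3, and the block with a trended prior, which called 4. The labels share replicate numbers only; across probe sets, the departures of an array from its group mean correlated at 0.80 between arrays with the same number. The count of members at least 2-fold higher in all comparisons was 3 with the filter at the 75th percentile, where 5 members remained, 4 or 5 with an array left out and 4 otherwise. Members called between array numbers were 0 with no filter, the cause of which was not tested, 2 with the filter at the 75th percentile, where 5 remained, and 3 to 5 otherwise; that fit has no residual degrees of freedom with an array left out. Of 99 alternative values of the members' differences, 94 moved by less than the replicate spread and 6 changed sign, for Fosb, Fosl1 and Fosl2. The 94 include values that could not move. A change of filter leaves the members' differences as they are, and so does averaging probe sets for a gene with only 1. With 1 array left out Jun ranged from 4.53 to 4.73, Fos from 3.43 to 4.62, Junb from 1.36 to 2.24 and Batf from 0.16 to 1.29, which mixes genotype with array number. The median of the kinase list ranged from -0.25 to 0.017 and changed sign without wild-type replicate 1. Of 88 alternative values of list medians, 8 changed sign, all of them medians between -0.13 and 0.07. Dim probe sets limit what can be said of Fosb, Fosl1 and Atf3, since the table has no detection calls.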
